A study of Homo sapiens with 8 samples.

Results

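The 10 genes described here are components of the Notch and Wnt pathways: the Notch ligand JAG1, the receptors NOTCH1 and NOTCH2, the Wnt ligand WNT5B, the Wnt receptors FZD7 and LRP6, the scaffold AXIN2, the coactivator BCL9L, the transcription factor SOX4 and the membrane protein BAMBI. They were followed through peaks of N4-acetylcytidine (ac4C), a modified cytidine in RNA, which an antibody enriched from the RNA before sequencing, next to input libraries. The genes were picked as a set because a high share of this kind of gene had a peak in SiHa cells and none after knockout of NAT10, the enzyme that forms ac4C. The presence or absence of a knockout peak therefore chose them and is given below as a description, with no test. All 10 had a SiHa peak and 3 of them had a knockout peak, out of 9046 gene identifiers with a peak in either list.

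SiHa is an established human cervical carcinoma line. The study compared SiHa cells with KONAT10SiHa cells, the NAT10 knockout, each with input libraries and immunoprecipitated (IP) libraries, so that 8 libraries form 4 groups of 2 biological replicates. The labels used here give no treatment and do not say whether the knockout is a single clone. Each population has 1 deposited peak list, and the list whose name carries an added K was read as that of the knockout, which no label states in words. The lists hold no read counts and no value for a single library, so depth is unknown and no difference between them can be set against replicate spread. The SiHa list held 12924 peaks in 7291 genes and the knockout list 4557 peaks in 3726 genes. NAT10 itself had 1 SiHa peak, with a p of 5e-37, and no knockout peak. Of 12 markers of squamous or cervical epithelium, KRT5, EPCAM and ITGB4 had a named peak in SiHa alone, KRT8 and KRT19 in both lists and KRT18 in the knockout alone. The other 6, among them KRT14, KRT17 and TP63, had no named peak in either list. Of these 6, KRT7 had a peak in its span that received no name. Of 12 markers of other cell types, ACTA2 and GFAP had a peak in SiHa alone, HBB, HBA1 and ALB in both lists, PTPRC and PECAM1 in the knockout alone, and 5 in neither. The peaks of HBB and HBA1 overlapped between the lists, with a highest knockout fold of 1290 for HBB. The strongest SiHa p was listed at 0 for HBB and was 1e-201 for ALB, 2e-24 for ACTA2, 2e-11 for HBA1 and 0.0066 for GFAP. Among the epithelial markers it was 1.6e-48 for KRT8, 1.6e-34 for KRT19, 2.4e-07 for ITGB4, 3.6e-07 for EPCAM and 8.3e-05 for KRT5. The part that peaks of other cell types have in the results below was not tested. A peak list does not measure expression, so these markers check the label only in part.

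Notch signalling passes between touching cells: a ligand such as JAG1 binds a NOTCH receptor, proteases release the receptor's inner domain, and this domain joins the DNA-binding protein RBPJ in the nucleus. In canonical Wnt signalling a secreted ligand binds a Frizzled receptor and the co-receptor LRP6, a destruction complex scaffolded by AXIN proteins stops degrading β-catenin, and β-catenin then activates genes with TCF/LEF factors and BCL9 family coactivators. Both pathways steer growth and differentiation of squamous epithelium, the tissue from which most cervical carcinomas arise.

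No genome sequence of the build was at hand, so the sequence of the peaks of the 10 genes is not shown. RefSeq tables of GRCh38.p14 give the 250 bases before and 50 bases after gene starts, for 6 of the 10 genes. No SiHa peak of these 6 genes reached such a window, and FZD7, LRP6, AXIN2 and BCL9L had no window listed. The SOX4 peak came closest, starting 62 bases after the SOX4 start. Among the other Notch and Wnt genes, 3 had a SiHa peak that covered at least 15 bases just after the gene's start. These are the stretches of peak sequence that can be shown, at most 30 bases each, 5′ to 3′ as DNA letters, with the cytosines, the base that ac4C modifies, in capitals. They belong to PSENEN, a subunit of the γ-secretase that cleaves NOTCH (bases 28 to 50 from the start, chr19:35745678-35745700, plus strand), to PORCN, which attaches a lipid to Wnt ligands (bases 31 to 50, chrX:48509022-48509041, plus strand), and to LGR4, an R-spondin receptor (bases 16 to 45, chr11:27472746-27472775, minus strand).
PSENEN: gCCggaggaagtgagCtCtCCtg
PORCN: CtgCgggggaggCtgCCCgg
LGR4: agaagggaaaaggaCgggaagagattgagC
Cytosines made up 26.1% of the PSENEN stretch, 30% of the PORCN stretch and 6.67% of the LGR4 stretch, against 28.0% of the 50 bases after the start in all 35116 windows. The LGR4 stretch was the poorest in cytosine of the 3. Each stretch is a part of its peak: 23 of 149 bases for PSENEN, 20 of 179 for PORCN and 30 of 151 for LGR4. The cytosine share of the whole peaks is not known, so it cannot be set against their strength. The p of the whole peak was 7.9e-11 for LGR4, 6.3e-05 for PSENEN and 0.00036 for PORCN.

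Promoter windows were listed for 6 of the 10 genes (NOTCH1, NOTCH2, JAG1, SOX4, BAMBI and WNT5B, the last with 2 starts, so 7 windows). The letters TGGGAA, the core of the RBPJ motif, were searched on both strands in the 250 bases before the start. They occurred in 2 of the 7 windows, those of SOX4 and of the downstream WNT5B start, and in 20.8% of all 35116 windows. The letters CTTTGA, a TCF/LEF core, were in 0 of the 7 and in 11.2% of all windows. Both windows with a match are shown on the plus strand, 5′ to 3′, with the motif in capitals. The windows of JAG1 and BAMBI, which like SOX4 and WNT5B had peaks in SiHa alone, had no match. The SOX4 window lies at chr6:21593501-21593750 and its motif begins at base -110 from the start. The WNT5B window lies at chr12:1628981-1629230 and its motif begins at base -44.
SOX4: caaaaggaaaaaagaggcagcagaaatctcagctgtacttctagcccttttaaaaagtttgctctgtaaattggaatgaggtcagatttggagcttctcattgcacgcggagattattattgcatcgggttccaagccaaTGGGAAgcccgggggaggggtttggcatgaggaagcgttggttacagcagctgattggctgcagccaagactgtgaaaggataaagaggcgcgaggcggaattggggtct
WNT5B: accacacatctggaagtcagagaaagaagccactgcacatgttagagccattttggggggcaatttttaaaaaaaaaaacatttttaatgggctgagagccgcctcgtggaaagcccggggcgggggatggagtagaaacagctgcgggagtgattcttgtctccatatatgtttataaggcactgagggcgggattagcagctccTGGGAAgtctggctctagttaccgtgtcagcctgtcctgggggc
A match to 6 letters is a description and not a site. Guanine and cytosine made up 48.8% of the SOX4 window and 50.8% of the WNT5B window, below the 58.0% median of all windows, and 81.2% of the BAMBI window, which was the richest of the 7.

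The 10 genes carried 29 SiHa peaks, from 1 peak in WNT5B and BAMBI to 5 peaks in AXIN2 and BCL9L. The strength of a peak is given by the authors' p for it, as deposited, and by −log10 of that p. Positions are on GRCh38, and the place of a peak in a gene is that of its middle base between the start and the end of the RefSeq gene span, introns included. A peak may consist of several blocks, which are separated on the genome and joined in the RNA. In the map of peaks along the genes, the SiHa peaks of JAG1, NOTCH1, NOTCH2, WNT5B, BCL9L and BAMBI all lay at 74.1% of the span or beyond. The SiHa peaks of LRP6, AXIN2, FZD7 and SOX4 were spread over it.

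**Figure D1:**
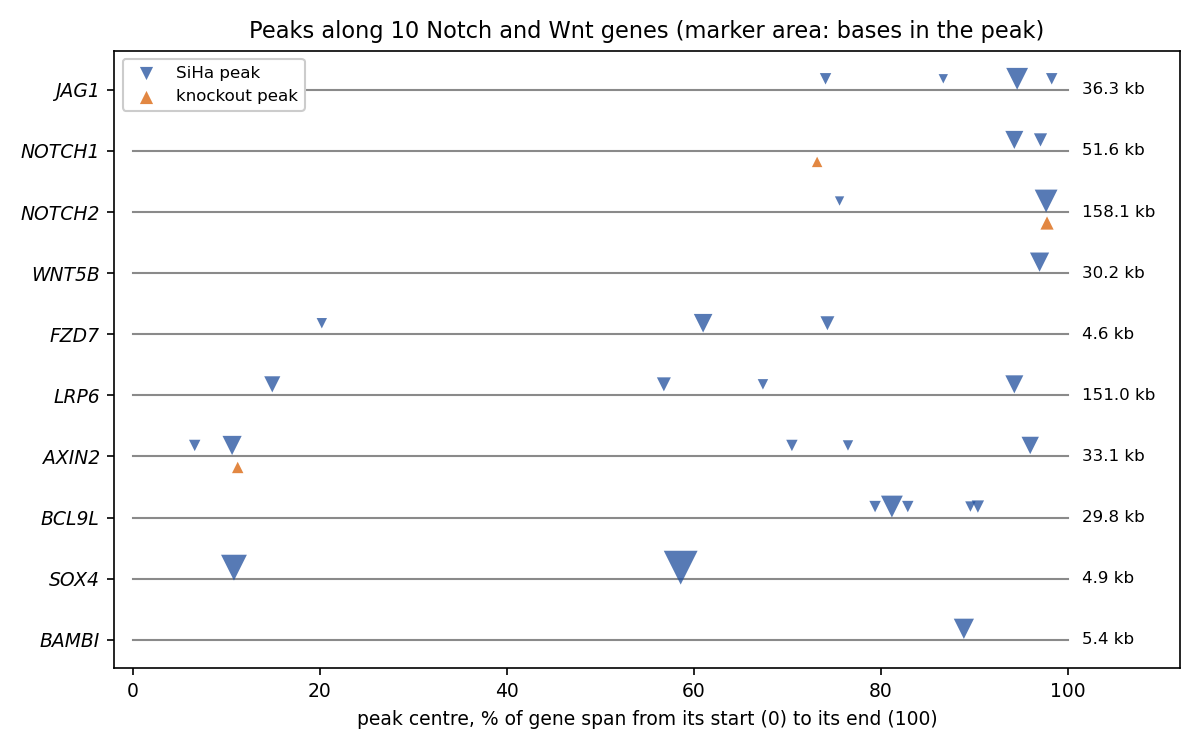
Peaks along the 10 genes, each gene drawn from its start (0%) to its end (100%), with the span length at the right. Blue triangles above the line are SiHa peaks, orange triangles below it are knockout peaks, and the marker area is proportional to the bases in the peak. A knockout peak lies under a SiHa peak in NOTCH2 and AXIN2, and away from the SiHa peaks in NOTCH1.

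JAG1 encodes a membrane-bound ligand of NOTCH receptors. The gene (ENSG00000101384, chromosome 20, 10637684 to 10673999, minus strand) had 4 SiHa peaks and no knockout peak. Its strongest peak had 659 bases in blocks of 625 and 34 bases between 10639331 and 10640816, with its centre 1.98 kb from the end of the gene and a p listed at 0. The other three were of 121 to 181 bases, with p of 8.3e-05, 0.0066 and 0.027. So JAG1 joined a single wide and strong peak near the 3′ end to narrow and weaker ones.

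NOTCH1 and NOTCH2 encode receptors that are cleaved after ligand binding. NOTCH1 (ENSG00000148400, chromosome 9, 136494433 to 136546048, minus strand) had 2 SiHa peaks, of 450 and 241 bases, with p of 1.9e-09 and 4e-12. They lay 2.93 and 1.48 kb from the end of the gene. By its strongest peak NOTCH1 was the weakest of the 10 genes, at percentile 54.8 of all SiHa genes. NOTCH2 (ENSG00000134250, chromosome 1, 119911553 to 120069662, minus strand) had a 720-base SiHa peak at 119914758 to 119915477 with a p listed at 0, and a second peak of 121 bases with a p of 0.027. The strong NOTCH2 peak was 3.56 kb from the end of the gene and the weak one 38.6 kb from it.

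WNT5B encodes a secreted Wnt ligand known mainly for signalling without β-catenin. The gene (ENSG00000111186, chromosome 12, 1617056 to 1647212, plus strand) had 1 SiHa peak of 510 bases at 1646047 to 1646556, 0.91 kb from the end, with a p of 1e-73. It had no knockout peak.

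FZD7 encodes a seven-pass Wnt receptor. The gene (ENSG00000155760, chromosome 2, 202033855 to 202038441, plus strand) had 3 SiHa peaks, of 150, 480 and 270 bases, with p of 0.0066, 1e-283 and 2.5e-09 in order from the gene's start. The middle and last of these were 238 bases apart. FZD7 is known as a gene without introns, and the 3 peaks covered 19.6% of its span. LRP6, the Wnt co-receptor, is a long gene (ENSG00000070018, chromosome 12, 12116025 to 12267044, minus strand) whose strongest peak was nearer the start than the end. That peak had 360 bases in blocks of 358 and 2 bases between 12244298 and 12266682, centred at 14.9% of the span, with a p of 3.2e-96. The other LRP6 peaks had p of 6.8e-08, 0.0023 and 6.3e-06, the last in 4 blocks of 183, 98, 137 and 32 bases near the end of the gene. Neither receptor had a knockout peak.

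AXIN2 scaffolds the destruction complex and is itself a widely used readout of canonical Wnt signalling. The gene (ENSG00000168646, chromosome 17, 65528563 to 65561648, minus strand) had 5 SiHa peaks. Its strongest peak, of 419 bases at 65529668 to 65530086, lay 1.31 kb from the end with a p of 2e-62. The next, of 509 bases at 65557891 to 65558399, lay 3.5 kb from the start with a p of 1.3e-17. The remaining ones, of 150 to 180 bases, had p of 0.00036, 0.0066 and 0.027. A total of 3 of the 5 peaks overlapped peaks that the list gives again under a second identifier (ENSG00000266076), whose blocks reach 75.5 kb beyond the AXIN2 span. This second identifier had 3 SiHa peaks and 1 knockout peak, which the counts for AXIN2 leave out. Whether the same reads were counted under both identifiers is not known.

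BCL9L links β-catenin to the transcription machinery. The gene (ENSG00000186174, chromosome 11, 118896136 to 118925926, minus strand) had 5 SiHa peaks within 3.47 kb. From the gene's start they had 181, 661, 181, 151 and 211 bases and p of 2.2e-05, 2e-37, 1.7e-06, 0.0016 and 2e-12. Neighbouring peaks were 119, 59, 1847 and 58 bases apart, so they form 2 tight clusters. There was no knockout peak.

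SOX4 encodes a high-mobility-group transcription factor that acts on Wnt signalling, and, like FZD7, is known to lack introns. The gene (ENSG00000124766, chromosome 6, 21593751 to 21598619, plus strand) had 2 SiHa peaks, the widest pair in the set. One had 926 bases at 21593813 to 21594738 with a p listed at 0, and the other 1583 bases at 21595813 to 21597395 with a p of 1e-253. Together they covered 51.5% of the gene span. BAMBI is a pseudoreceptor that lacks a kinase domain, dampens TGF-β signalling and is a known Wnt target. The gene (ENSG00000095739, chromosome 10, 28677521 to 28682932, plus strand) had 1 SiHa peak of 565 bases at 28682049 to 28682613, 0.601 kb from the end, with a p listed at 0. Neither gene had a knockout peak.

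Set beside all SiHa genes, the 10 genes had more, wider and stronger peaks. Their median was 2.5 peaks a gene against 1, 1020 covered bases a gene against 300, and 270 bases a peak against 181. The median −log10 p of a gene's strongest peak was 189 against 9.39. In 4 of the 10 genes (JAG1, NOTCH2, SOX4 and BAMBI) the strongest p was listed at 0, as in 3.85% of all SiHa genes. Since the set was proposed with these lists known, no test was made of these differences. The median over single peaks was much closer, 8.60 against 6.05. Of the 8 genes with several peaks, NOTCH1 and SOX4 had no peak weaker than that median of 6.05, and each of the others joined a stronger peak to weaker ones.

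**Figure D2:**
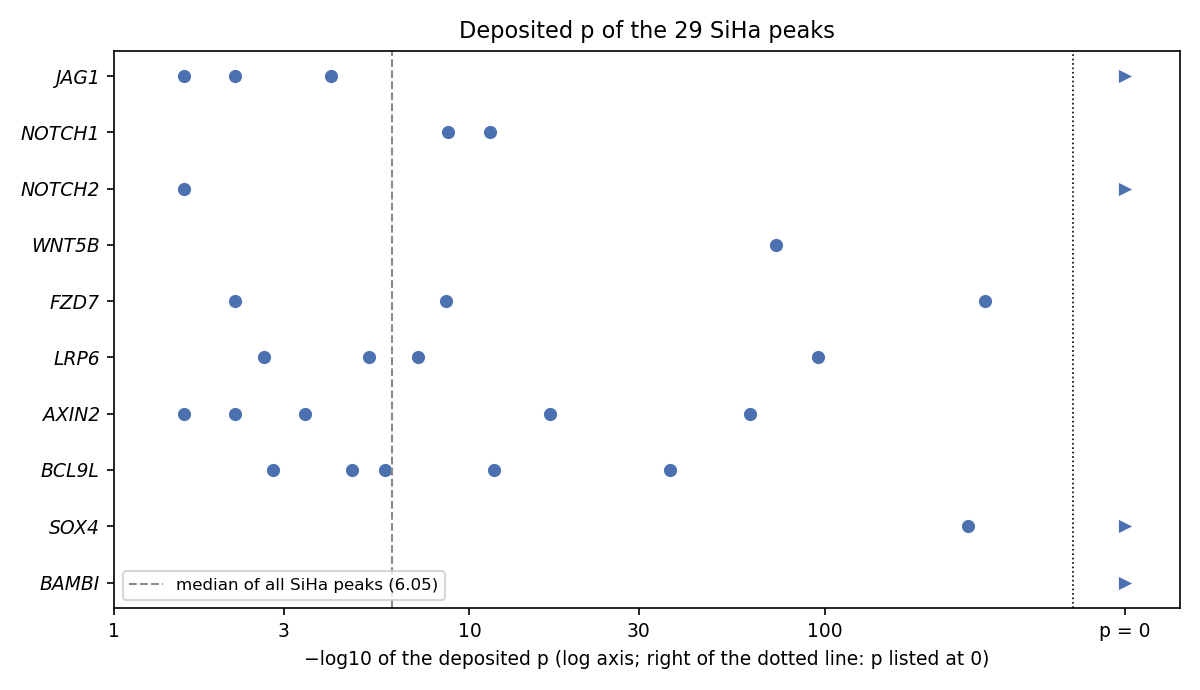
The −log10 of the deposited p of each of the 29 SiHa peaks, by gene, on a log axis. Triangles right of the dotted line are peaks with a p listed at 0, and the dashed line is the median of all SiHa peaks (6.05). JAG1 and NOTCH2 each combine a peak with a p listed at 0 and weak peaks with −log10 p of 1.57.

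Many of the weak peaks had the same p. The value 0.027 was the p of 1081 SiHa peaks and of 3 peaks of the set, in JAG1, NOTCH2 and AXIN2. The value 0.0066 was that of 974 SiHa peaks and of 3 of the set, in JAG1, FZD7 and AXIN2. In all, 9 of the 29 peaks (31.0%) had a nonzero p shared by at least 100 SiHa peaks, against 37.6% of the whole list. With peaks of −log10 p above 8 alone, all 10 genes still had a SiHa peak, 15 peaks in all.

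In place and structure the peaks of the set were not far from those of other genes. The centre lay in the last 10% of the gene span for 9 of 29 peaks (31.0%, 95% exact binomial interval 15.3 to 50.8%), against 41.0% of 11106 peaks of named SiHa genes. It lay in the first 10% for 1 peak, in AXIN2. Several blocks made up 10 of the 29 peaks (34.5%), against 25.2% of all SiHa peaks, but 3 of 15 (20%) against 28.9% among peaks of −log10 p above 8. The interval covers counting of peaks only and takes the peaks as independent. The 29 peaks come from 10 picked genes, up to 5 from 1 gene, and peaks of the same gene may depend on each other. Nothing is therefore read from the interval.

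No knockout peak was present in 7 of the 10 genes: JAG1, WNT5B, FZD7, LRP6, BCL9L, SOX4 and BAMBI. Of all SiHa genes, 73.0% had none, so the share in the set was near the background, and as the set was chosen by this outcome nothing is read from it. Of the 1822 SiHa genes with the smallest p for their strongest peak, 60.6% had no knockout peak. Those 1822 included 9 of the 10 genes, all but NOTCH1, and 7 of these 9 had none. Of the 281 SiHa genes with a strongest p listed at 0, 53.0% had no knockout peak, as did JAG1, SOX4 and BAMBI but not NOTCH2.

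The 3 knockout peaks of the set differed widely. In NOTCH2 a knockout peak of 241 bases at 119914938 to 119915178 lay wholly inside the strong SiHa peak and covered 33.5% of it. It had a fold enrichment of 78.6, higher than 93.9% of knockout peaks, a p of 1.3e-55 and a false discovery rate (FDR) of 3.16e-53. Folds and FDRs are the authors' own, and the reference of the fold is not stated.

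In NOTCH1 the knockout peak had 151 bases in blocks of 60 and 91 bases at 136508080 to 136508322, and lay 9.15 kb from the nearest SiHa peak, 13.8 kb from the end of the gene. Its fold was 48.7, its p 7.9e-12 and its FDR 2.51e-10. NOTCH1 thus had a peak in both lists but at different places.

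In AXIN2 the knockout peak of 180 bases at 65557861 to 65558040 shared 150 bases with the second strongest SiHa peak, near the start of the gene. Its p was 0.038, its fold 7.69 and its FDR 0.526, the highest FDR in the list, given to 547 peaks. At an FDR of at most 0.05 AXIN2 would have no knockout peak, which makes 8 of 10 genes without one, against 77.9% of all SiHa genes. The strong 3′ peak of AXIN2 had no counterpart in the knockout list.

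Folds in the knockout list fell on repeated values. Of 4363 folds below 100, 2604 (59.7%) were whole multiples of 2.564, within 0.006 for folds below 10 and 0.06 for higher folds. The AXIN2 fold of 7.69, at 3 steps, was the most frequent of all, in 316 peaks, of which 260 (82.3%) had an FDR above 0.05. The NOTCH1 fold of 48.7, at 19 steps, was given to 34 peaks, whereas the NOTCH2 fold of 78.6 was off the series and given to this peak alone. Without the knockout peaks on the series, NOTCH2 was the only gene of the set with a knockout peak, so 9 of 10 had none, against 85.6% of all SiHa genes. What produced the repeated values was not tested.

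**Figure D3:**
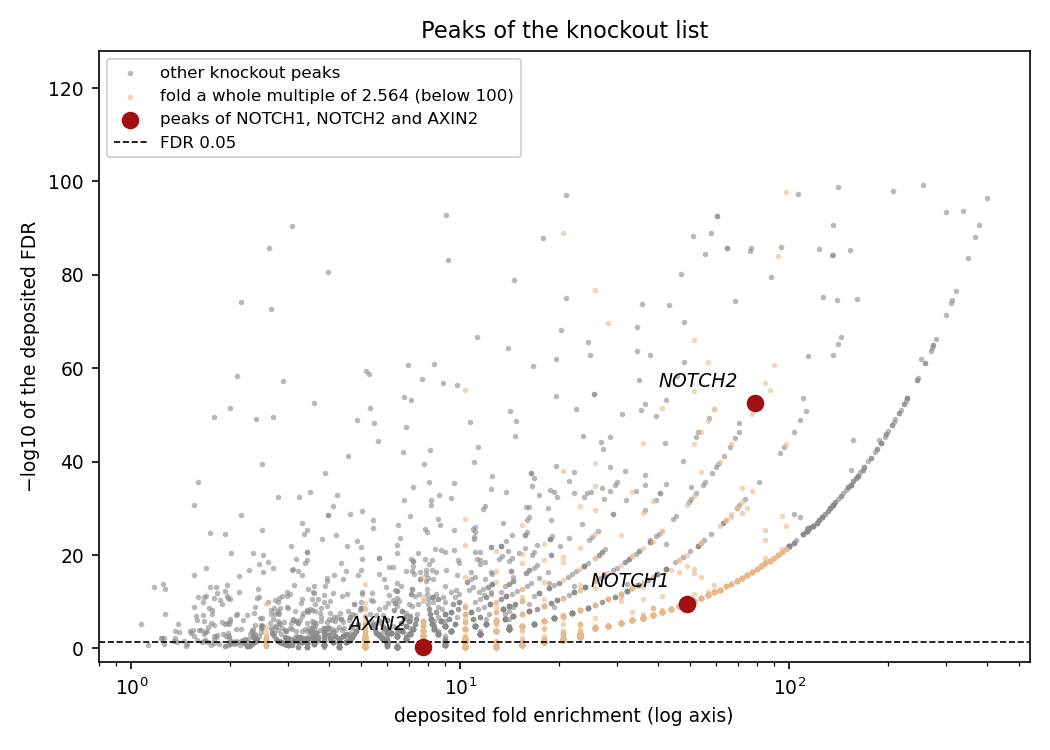
Fold enrichment (log axis) against −log10 of the FDR for 4483 peaks of the knockout list, with folds that are whole multiples of 2.564 in light orange and an FDR of 0.05 as a dashed line. A further 74 peaks with an FDR below 1e-100 are not drawn. The NOTCH2 peak lies high at a fold of 78.6, the NOTCH1 peak lies on the lower right edge of the cloud, and the AXIN2 peak lies under the dashed line.

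By overlap, the set had 2 genes, NOTCH2 and AXIN2, in which a knockout peak shared at least 1 base with a SiHa peak, so 8 of 10 had none, against 89.3% of all SiHa genes. At the level of peaks, 2 of 29 SiHa peaks (6.90%) were overlapped, against 6.76% of all SiHa peaks. NOTCH2 was the only gene of the set with an overlapping knockout peak at an FDR of at most 0.05.

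The rest of the Notch and Wnt pathways was described from lists of 132 other genes in 14 role classes. Of these, 49 had a named SiHa peak, 39 in SiHa alone (79.6%, against 73.0% of all SiHa genes) and 10 in both lists. As the lists were chosen with earlier results of these data known, no test was made and nothing is read from this difference. A further 9 had a knockout peak alone, which is 47.4% of the 19 with a knockout peak, against 47.1% of all knockout genes. The other 74 had no named peak in either list. For the 49 genes with a SiHa peak the median strongest −log10 p was 10.4, close to the 9.39 of all SiHa genes and far below the 189 of the set.

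Among Notch genes other than the set, 12 of 16 with a SiHa peak (75.0%) had it in SiHa alone, near the 73.0% of all SiHa genes. The ligand JAG2 had 1 SiHa peak (p of 2e-22). The protease genes ADAM10 (p of 2.5e-56) and ADAM17 (p of 3.2e-17), which cut the receptor's outer part, and the γ-secretase genes PSEN2 and APH1A had peaks in SiHa alone, while NCSTN, another γ-secretase subunit, had a peak in the knockout alone (fold 16.2). POFUT1, which puts fucose on NOTCH, had 2 SiHa peaks and none in the knockout. FURIN, LFNG and DTX3L had peaks in both lists, at different places. Of the nuclear partners, MAML1 and MAML2 had peaks in SiHa alone, SPEN in both with an overlap, and RBPJ in the knockout alone (fold 5.98, FDR 0.049). None of the 6 listed Notch target genes, such as HES1 and HEY1, had a named peak.

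Among Wnt genes other than the set, 27 of 33 with a SiHa peak (81.8%) had it in SiHa alone, against 73.0% of all SiHa genes. Of the ligands, WNT7B had 5 SiHa peaks (strongest p of 1e-33) and WNT2B 1 weak peak (p of 0.027), while WNT5A, the close relative of WNT5B, had a knockout peak alone (fold 4.03, FDR 3.31e-08). In ligand secretion, PORCN had its peak in SiHa alone and WLS, the Wnt carrier, in the knockout alone (fold 35.0). Of the 9 Frizzled genes other than FZD7, 6 had a SiHa peak, and 5 of these, all but FZD3, had none in the knockout, against 73.0% of all SiHa genes. FZD6 and FZD4 had strongest p of 6.3e-56 and 3.2e-54. FZD5, FZD2, the co-receptor LRP5 and the receptor kinase ROR1 also had peaks in SiHa alone, and PTK7 in the knockout alone, with an FDR of 0.15.

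Of the genes that control Frizzled turnover, LGR4 had 3 SiHa peaks (strongest p of 1e-101), and the ubiquitin ligases ZNRF3 and RNF43 had 2 each, all in SiHa alone. Of the secreted or surface inhibitors, DKK3, DKK4 and SFRP5 had peaks in SiHa alone and KREMEN1 in both. CTNNB1, which encodes β-catenin, had 1 SiHa peak of 240 bases (p of 1.3e-47) and none in the knockout, and the kinase gene CSNK1D had peaks in both lists, at different places. In the destruction complex, AXIN1 and APC2 had peaks in SiHa alone and BTRC in both. The kinase gene GSK3B had its peak in the knockout alone (FDR 5.01e-51), with a fold of 76.9 that was on the repeated series. An identifier in the span of the kinase gene CSNK1A1 also had its peak in the knockout alone (FDR 0.049).

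The nuclear partners of β-catenin split by gene. BCL9, the relative of BCL9L, had 4 SiHa peaks, PYGO2 2, the corepressors TLE1, TLE4 and CTBP2 5, 2 and 6, and TCF7L2 1, all in SiHa alone. TLE3, another corepressor, had 4 peaks in the knockout and none in SiHa, with a highest fold of 84.6 that was on the repeated series. TCF7 had 2 peaks in the knockout alone. CHD8 had peaks in both lists, 5.95 kb apart. Of the targets, NKD1 and ASCL2 had peaks in SiHa alone, whereas the cyclin gene CCND1 had 8 SiHa peaks, 2 of them overlapped by its 2 knockout peaks. Of the 10 genes of these lists with peaks in both, 4 had an overlapping peak, 3 had knockout peaks with an FDR above 0.05 and no other, and in 6 every knockout fold was on the repeated series. By overlap, 45 of the 49 genes with a SiHa peak (91.8%) had no knockout peak, against 89.3% of all SiHa genes. At an FDR of at most 0.05, 42 of 49 (85.7%) had none, against 77.9%. Without knockout peaks on the series, 45 of 49 (91.8%) had none, against 85.6%.

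**Figure D4:**
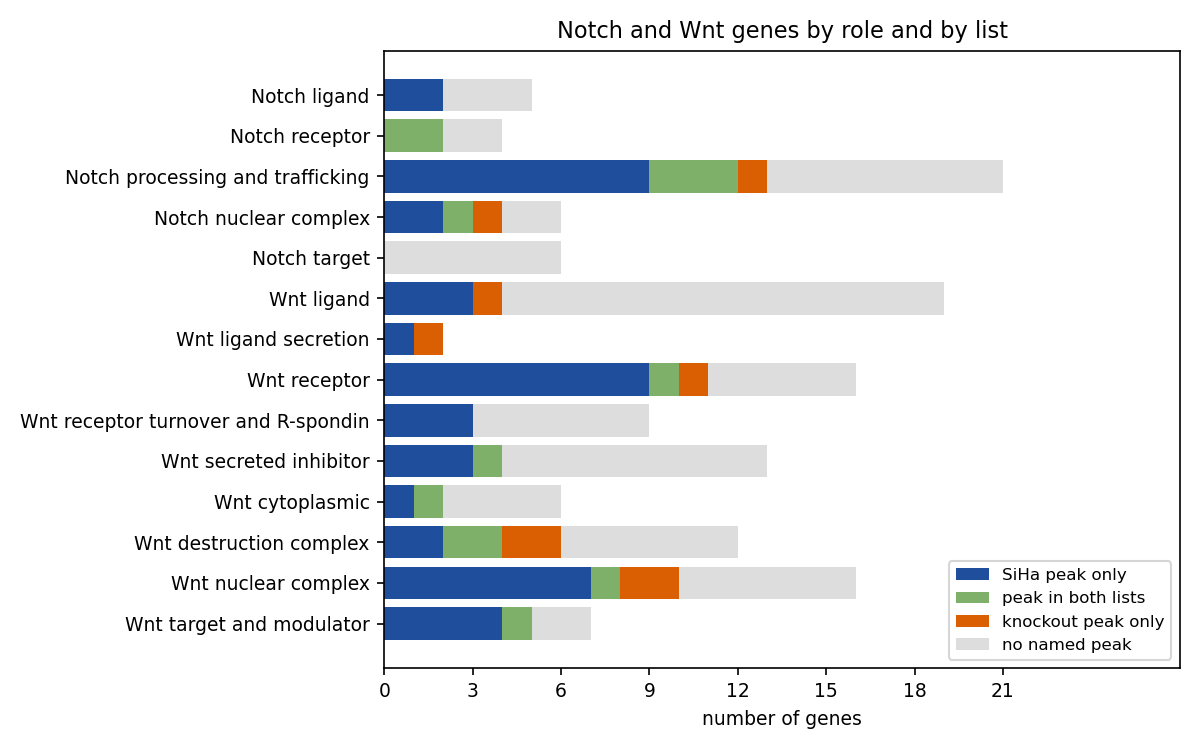
Number of genes in each Notch and Wnt role class with a peak in SiHa alone (blue), in both lists (green), in the knockout alone (orange) or with no named peak (grey), the set of 10 included. In the Wnt receptor class 9 of 16 genes had a peak in SiHa alone, and none of 6 Notch targets had a named peak. In the Notch receptor class both genes with a named peak had it in both lists, and NOTCH4 had a peak in its span without a name.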

How the data were processed

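The labels name 8 libraries of ac4C-captured or input RNA from SiHa and NAT10-knockout SiHa cells, made with a stranded mRNA kit, per the labels' protocols. FastQC 0.11.7 and build GRCh38 stand in the submitters' processing notes. Of aligner, peak caller and replicate handling, nothing is given in the sources used here. The authors deposited 1 peak list for each population, with a p-value for each peak. In the knockout list the authors also gave log10 of the p-value and of the FDR, and a fold enrichment, a ratio, per the file headers.

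From these lists 1 repeated line and 5 peaks off the chromosomes were left out. The files do not pair identifiers with names. An identifier took the name of the RefSeq span (GRCh38.p14, same strand where the promoter table gives it) that alone held at least 90% of its peak bases, if no other identifier did: 7528 of 9046 (83.2%) were named, and positional names can be wrong. In 8 listed genes, among them NOTCH4, CTBP1, CSNK1E and MAML3, a peak in the span received no such name. Peaks overlapped when blocks on 1 strand shared 1 base. The members and gene lists were chosen with earlier results of these data known. The text names the 10 members, every gene of the pathway lists (Notch, Wnt, TGF-β and BMP receptors, SOX) with a knockout peak, and up to 6 genes per class with a SiHa peak alone, by smallest p. PSENEN was added after its values were seen, for its sequence. One listed gene is not reported here by name. Naming and overlap were tested on simulated data. Python 3.11.15, pandas 2.3.3 and scipy 1.17.1 were used.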

Additional observations from a re-analysis of the deposited data

How the results depend on the processing

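The number of set genes without a knockout peak was 7 of 10 and ranged from 7 to 9 over the 6 alternatives run. Over the same alternatives the share of all SiHa genes without one ranged from 65.5% to 89.3%, so the background moved as well. The number of other Notch and Wnt genes with a SiHa peak alone was 39 of 49 and stayed within 1.5 times of that in 4 of 6 alternatives. It was 19 of 24 (79.2%, against 65.5% of all SiHa genes) when the SiHa peaks were limited to the strongest, in the number of the knockout list, and 24 of 27 (88.9%, against 84.8%) with only peaks of −log10 p above 8, since fewer genes then have a SiHa peak. An overlapping knockout peak was present in 2 of the 10 set genes, against 10.7% of all SiHa genes. At an FDR of at most 0.05, which leaves out AXIN2, it was 1 of 10, against 9.29%. When overlap had to be reciprocal over 50% of both peaks it was 0 of 10, against 5.34%. The overlaps covered 33.5% (NOTCH2) and 29.5% (AXIN2) of the SiHa peak. With only SiHa peaks of −log10 p above 8, the median was 1.5 peaks a gene (all SiHa genes 1) and 509 bases a peak (all 271). Of the 15 peaks of the set then left, 3 (20%) had several blocks, against 28.9% of all, so that this share turned from above to below that of all SiHa peaks.

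No paired analysis was possible because the lists give no value for a single library, and leaving out a replicate was not run for the same reason. Depth is unknown, so the lack of a peak does not show a lack of ac4C.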

Other observations

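The receptors of TGF-β and BMP signals, with which BAMBI interferes, were listed beside the Notch and Wnt genes. Of 9 listed, 8 had a SiHa peak, and 6 of these had it in SiHa alone, against 73.0% of all SiHa genes: TGFBR1, TGFBR2, BMPR1A, ACVR1, ACVR2A and ACVR2B. TGFBR2 had 4 SiHa peaks, with a strongest p of 1.6e-58. ACVR1B and BMPR2 had peaks in both lists, 2 and 32.7 kb apart at the nearest, and the ACVR1B knockout peak had the same fold (7.69) and FDR (0.526) as that of AXIN2.

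Of 7 other SOX genes listed, SOX9 had 3 SiHa peaks (strongest p of 1e-237) and SOX12 had 2, none with a knockout peak, and SOX13 had a peak in each list, 0.537 kb apart.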
